A study of Homo sapiens with 32 samples.

Results

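The FOXA genes FOXA1, FOXA2 and FOXA3 encode pioneer factors of the fork head family, and their loci were searched for HNF4α peaks in 18 chromatin immunoprecipitation sequencing (ChIP-seq) libraries from 3 human pancreatic ductal adenocarcinoma cell lines. A peak was assigned to a locus when its summit lay within 50 kb of the gene's span on GRCh38. This gave 39 of 337294 listed peaks, which merged into 17 of 78729 regions when peaks that overlapped by at least 1 bp were joined. FOXA3 held 21 of these peaks in 5 regions, FOXA2 held 11 in 7 regions and FOXA1 held 7 in 5 regions.

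Panc10.05 and BxPC3 cells carried doxycycline-inducible HNF4α, labelled P1-a2 or P2-a8 after the P1 and P2 promoters of HNF4A. Doxycycline was given at 25 ng/mL to Panc10.05 P1-a2, at 12.5 ng/mL to Panc10.05 P2-a8 and at 500 ng/mL to both BxPC3 genotypes, so isoform and dose changed together in Panc10.05. ASPC1 cells carried CRISPR interference (CRISPRi), which represses transcription without cutting DNA, with guides labelled sgNC, sgP1 or sgP2, and no doxycycline treatment is labelled for them. A pan-HNF4α antibody was used in all 7 of these combinations of line and genotype, and an antibody to HNF4α-P1 was used in ASPC1 sgNC and sgP2. Each of the 9 groups had 2 libraries. Nothing in the labels ties the libraries to clones or states that cultures were separate, so p-values measure the spread between these libraries. An uninduced Panc10.05 or BxPC3 group was not analysed here, so every peak of these lines comes from cells given doxycycline. The peak lists hold no expression values, and the identity of the lines and the effect of the guides were not checked here.

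FOXA proteins open compacted chromatin in foregut endoderm, and FOXA1 and FOXA2 act together in the development of liver and pancreas. HNF4α is a nuclear receptor that works beside FOXA factors at enhancers of liver, gut and pancreas genes, and in hepatocytes the genes of these factors regulate one another. FOXA1 and FOXA2 can replace each other at many sites, and FOXA3 is best known from liver and gut. A peak near a gene does not show that the gene is regulated from there.

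The lists held 12681 to 41808 peaks in the induced lines, 11686 to 24295 in ASPC1 with the pan antibody, 3916 to 5200 in ASPC1 sgP2 with the P1 antibody and 260 to 697 in ASPC1 sgNC with the P1 antibody. The lowest −log10 q was about 8 in the induced lines and about 2 in ASPC1, so lines were compared at a −log10 q of at least 8. Fold enrichment over background, as the authors' lists give it, was turned into a percentile within each list, in which 100 is the highest peak. These percentiles describe a list's own order and are not levels of binding. The depth of the libraries is unknown here.

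FOXA1 lies on chromosome 14 at 37589552 to 37595249, with the start of TTC6, a gene on the other strand, 380 bp away. FOXA2 lies on chromosome 20 at 22580998 to 22585490 between the long non-coding RNA genes LINC00261 and LNCNEF, and 0 other protein-coding genes lie within 50 kb. FOXA3 lies on chromosome 19 at 45864326 to 45873797 in a gene-rich stretch, where 5 other protein-coding genes lie within 50 kb. The FOXA gene was the nearest protein-coding gene for 8 of the 17 regions, made up of 7 at FOXA2, 1 at FOXA3 and 0 at FOXA1.

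The region nearest to FOXA1 had its summits 0.5 to 0.7 kb beyond the gene's start and covered the start of TTC6, and a region near FOXA3 covered the start of the neighbour IRF2BP1. The 250 bases upstream of each start are shown because they place these peaks relative to the genes (RefSeq, GRCh38.p14, each on its gene's strand). In the FOXA1 sequence, from chr14:37595250-37595499 on the minus strand, capitals mark the letters GCAAACA, the reverse complement of the fork head variant TGTTTGC, and no list held a peak that overlapped these bases. In the TTC6 sequence, from chr14:37595379-37595628 on the plus strand, capitals mark the 40 bases inside the merged peak. In the IRF2BP1 sequence, from chr19:45886142-45886391 on the minus strand, capitals mark the 185 bases inside the peaks of both Panc10.05 P2-a8 lists.
FOXA1: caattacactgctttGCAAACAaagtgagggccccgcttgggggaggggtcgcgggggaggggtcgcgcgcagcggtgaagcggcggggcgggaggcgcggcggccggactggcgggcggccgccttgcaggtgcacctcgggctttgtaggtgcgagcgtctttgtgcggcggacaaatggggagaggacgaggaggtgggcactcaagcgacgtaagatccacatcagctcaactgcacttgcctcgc
TTC6: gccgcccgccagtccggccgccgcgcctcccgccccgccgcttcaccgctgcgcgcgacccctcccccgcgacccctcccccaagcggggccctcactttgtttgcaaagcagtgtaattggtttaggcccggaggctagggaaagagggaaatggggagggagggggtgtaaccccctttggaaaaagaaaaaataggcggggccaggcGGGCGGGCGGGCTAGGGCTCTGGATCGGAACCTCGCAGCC
IRF2BP1: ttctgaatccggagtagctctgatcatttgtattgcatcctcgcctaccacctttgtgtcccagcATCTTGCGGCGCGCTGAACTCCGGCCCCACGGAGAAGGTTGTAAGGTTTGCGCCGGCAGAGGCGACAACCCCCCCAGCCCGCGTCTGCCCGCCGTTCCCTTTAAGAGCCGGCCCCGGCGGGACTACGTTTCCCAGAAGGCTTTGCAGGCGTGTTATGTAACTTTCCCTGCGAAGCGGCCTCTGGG
The FOXA1 and TTC6 sequences overlap on opposite strands, and the fork head variant in them is the same stretch of DNA. It lies outside the peak. Both strands of these upstream windows were searched for CAAAGTCCA (an HNF4 motif), TGTTTAC and TGTTTGC (fork head motifs). CAAAGTCCA was found in none of the windows of FOXA1, TTC6, FOXA3 and IRF2BP1, and in 0.325% of all 35116 promoters. TGTTTAC was found in none of these 4 windows and in 2.98% of all, and TGTTTGC was found in those of FOXA1 and TTC6 and in 3.23% of all. The windows of the neighbours LINC00261, LNCNEF, SYMPK, MYPOP and NANOS2 were searched too. That of LINC00261, beside FOXA2, held GTAAACA, the reverse complement of TGTTTAC, at −237 from its start. It overlapped a peak in 0 lists, and the other neighbours held no match. The FOXA3 promoter window, on the plus strand at chr19:45864076-45864325, overlapped a peak in 0 of 18 lists. Peaks overlapped between 0.0541% and 14.6% of all such windows, depending on the list.

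**Figure D1:**
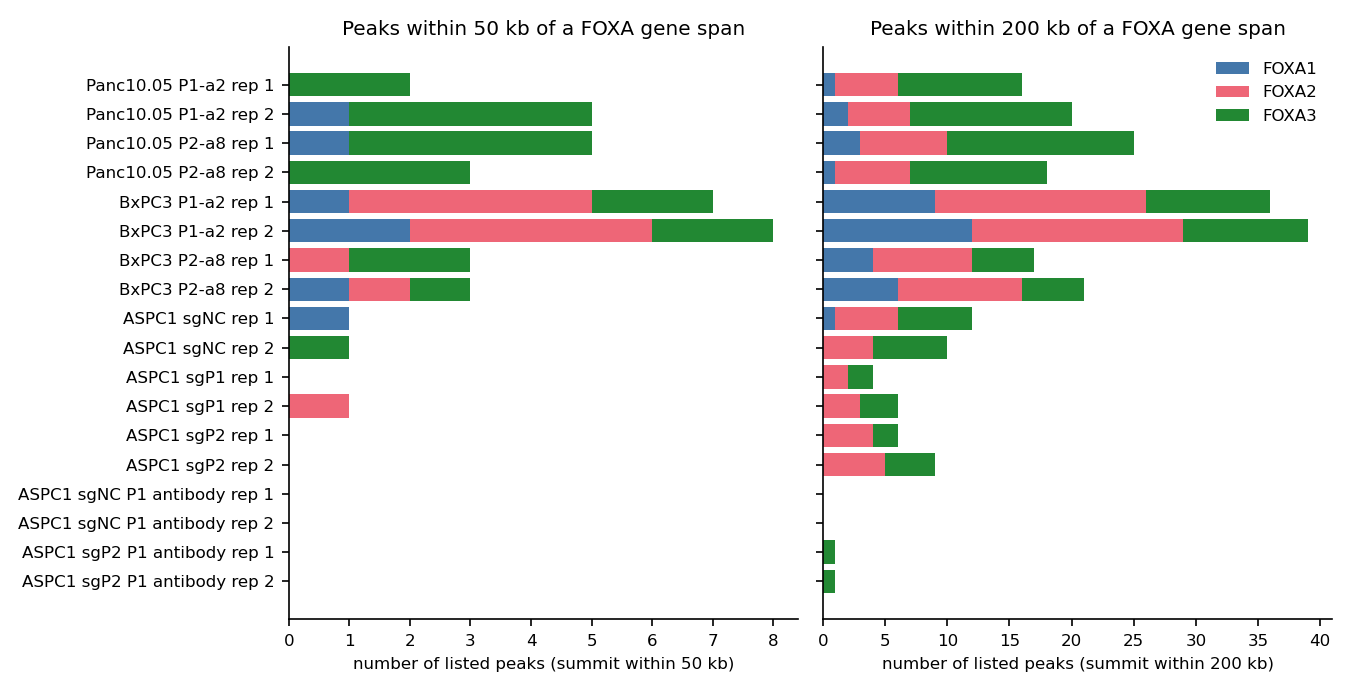
Number of listed peaks (horizontal axis) whose summit lies within 50 kb (left) or 200 kb (right) of the span of FOXA1, FOXA2 or FOXA3 in each of the 18 lists, as deposited. Within 50 kb the bars reach from 0 to 8 peaks, with the longest in BxPC3 P1-a2 and none in the P1-antibody lists, and lists differ in length.

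FOXA3 had peaks in every list of both induced lines, FOXA2 had them within 50 kb in every BxPC3 list and no Panc10.05 list, and FOXA1 had few anywhere. At FOXA3, Panc10.05 P1-a2 held 2 and 4 peaks, Panc10.05 P2-a8 held 4 and 3, BxPC3 P1-a2 held 2 and 2, and BxPC3 P2-a8 held 2 and 1. At FOXA2, BxPC3 P1-a2 held 4 and 4 peaks and BxPC3 P2-a8 held 1 and 1, against 0 in each of the 4 Panc10.05 lists. At FOXA1, Panc10.05 P1-a2 held 0 and 1, Panc10.05 P2-a8 held 1 and 0, BxPC3 P1-a2 held 1 and 2, and BxPC3 P2-a8 held 0 and 1. The 6 ASPC1 lists of the pan antibody held 3 peaks in all, which were 1 at FOXA1 in sgNC replicate 1, 1 at FOXA3 in sgNC replicate 2 and 1 at FOXA2 in sgP1 replicate 2. The 4 P1-antibody lists held 0.

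Peaks within 50 kb were common among genes. In both lists of Panc10.05 P1-a2, 74.5% of 20037 protein-coding genes had one, and the share was 79.5% in Panc10.05 P2-a8, 76.6% in BxPC3 P1-a2 and 45.4% in BxPC3 P2-a8. It was 58.5% in ASPC1 sgNC, 50.6% in sgP1 and 52.0% in sgP2 with the pan antibody, and 2.31% in sgNC and 23.7% in sgP2 with the P1 antibody. Of the 3 FOXA genes, FOXA3 alone met this in either Panc10.05 group, all 3 met it in BxPC3 P1-a2, FOXA2 and FOXA3 met it in BxPC3 P2-a8, and none met it in any ASPC1 group. In a single Panc10.05 list, 15.7% to 24.1% of genes had no peak within 50 kb. The share with none in every Panc10.05 list, as at FOXA2, was not counted and cannot exceed the lowest of these.

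Other genes were taken as a reference for the FOXA loci. Of 17 transcription factors of foregut and pancreatic endoderm, 13 had a peak in both lists of Panc10.05 P1-a2, 12 in Panc10.05 P2-a8, 14 in BxPC3 P1-a2 and 7 in BxPC3 P2-a8. In ASPC1 the counts were 10 in sgNC, 9 in sgP1 and 8 in sgP2 with the pan antibody, and 0 in sgNC and 5 in sgP2 with the P1 antibody. GATA6, a zinc finger factor of the endoderm, and PDX1, a homeodomain factor of pancreas and duodenum, each had peaks in both lists of 8 of the 9 groups, and FOXA3, the FOXA gene with the most, had them in 4. HHEX and MNX1, homeobox factors of early endoderm, had them in 0 groups. Among 42 other fork head genes the counts were 32, 35, 31 and 18 in the same order of the induced groups, and 18, 18 and 19 in ASPC1 sgNC, sgP1 and sgP2 with the pan antibody. With the P1 antibody they were 1 in sgNC and 6 in sgP2.

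**Figure D2:**
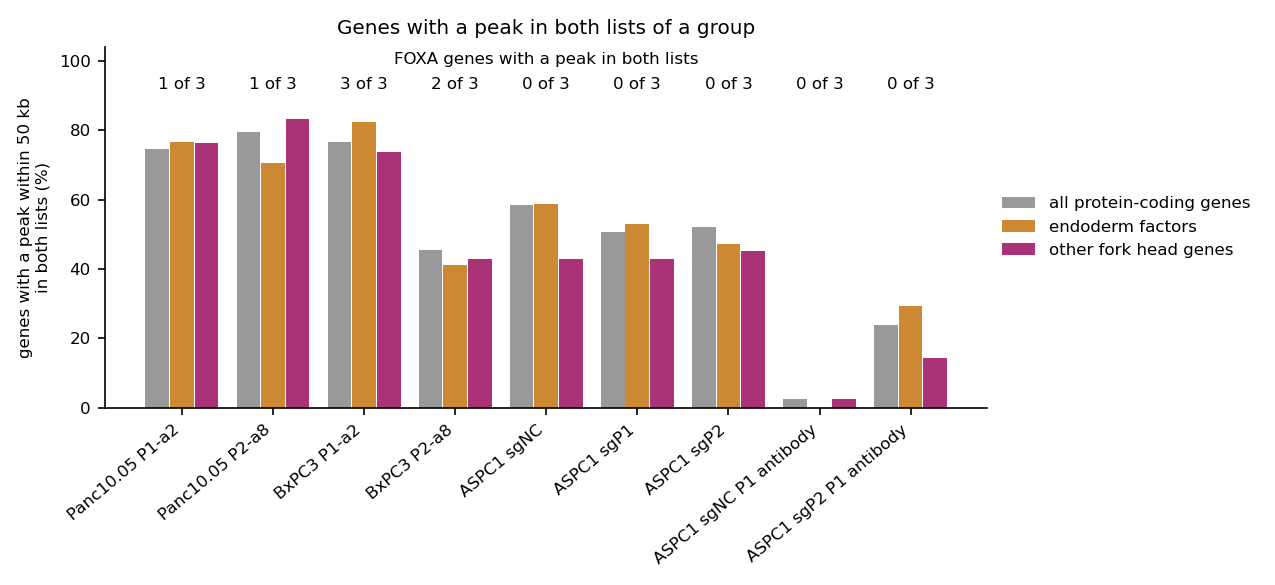
Share of genes (vertical axis, percent) with a summit within 50 kb in both lists of each group, for all protein-coding genes (grey), 17 endoderm factors (orange) and 42 other fork head genes (purple), with the number of FOXA genes above each group. The FOXA count is highest at 3 of 3 in BxPC3 P1-a2 and 0 of 3 in the ASPC1 groups.

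At FOXA1, the region at the TTC6 start (chr14:37595589-37596145) was listed in 3 lists at low percentiles. These were 10.5 in Panc10.05 P1-a2 replicate 2, 23.8 in Panc10.05 P2-a8 replicate 1 and 1.6 in BxPC3 P1-a2 replicate 1. It was missing from the replicate of each of these libraries. The other 4 regions lay 19.6 to 35.3 kb away on the side of MIPOL1 and were each in 1 list, which was ASPC1 sgNC replicate 1 for the region at 22.4 kb (percentile 47.6) and a BxPC3 list for the rest (percentiles 0.8 to 54.2).

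At FOXA2, all 7 regions lay at least 16.1 kb from the gene. The 2 that recurred were on the side of LNCNEF. The region at chr20:22615647-22615987 had percentiles of 14.4 and 12 in BxPC3 P1-a2 and 36.9 in BxPC3 P2-a8 replicate 1. The region at chr20:22629388-22629888 had percentiles of 82.9 and 26.4 in BxPC3 P1-a2 and 32.8 in BxPC3 P2-a8 replicate 2. Each was thus in both P1-a2 lists and in 1 of the P2-a8 lists, where fewer peaks were listed. Of the other 5 regions, 4 were single BxPC3 P1-a2 peaks at percentiles of 3.1 to 13.8, and 1 was the ASPC1 sgP1 peak described below.

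At FOXA3, a pair of regions beyond the genes IRF2BP1 and MYPOP recurred. The region at chr19:45906044-45906735, 32.6 kb from FOXA3 and 3.43 kb from MYPOP, was in all 8 induced lists and in none of the ASPC1 lists. Its percentiles were 33.0 and 72.8 in Panc10.05 P1-a2, 81.0 and 77.2 in Panc10.05 P2-a8, 69.2 and 77.8 in BxPC3 P1-a2, and 58.6 and 45.4 in BxPC3 P2-a8. It ranked above 50 in 6 of these 8 lists. This pattern, all 8 induced lists and no ASPC1 list of the pan antibody, was met by 2.43% of all regions. The region at chr19:45911144-45911742, 37.7 kb from FOXA3 and 1.47 kb from NANOS2, was in 7 induced lists. Its percentiles were 79.2 and 65.6 in Panc10.05 P1-a2, 82.6 and 72.2 in Panc10.05 P2-a8, 67.4 and 35.8 in BxPC3 P1-a2, and 29.1 in BxPC3 P2-a8 replicate 1. The summits of each spanned 47 bp across lists, against a median of 80 bp (quartiles 56 and 122) over 5175 regions with 1 peak in each of the 8 induced lists. The region near NANOS2 was in only 7 of these lists, so its span is not a like measure. MYPOP, a DNA-binding repressor gene, and NANOS2, an RNA-binding germ cell gene, lie nearer to this pair of regions than FOXA3 does.

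The remaining FOXA3 regions were weaker. The region over the IRF2BP1 start (chr19:45885782-45886865) had percentiles of 28.8 and 12.8 in Panc10.05 P2-a8 and 4.4 in Panc10.05 P1-a2 replicate 2. The region 4.4 kb from the FOXA3 span, the only one with FOXA3 as its nearest gene, had percentiles of 14.1 in Panc10.05 P1-a2 replicate 2 and 5.8 in ASPC1 sgNC replicate 2. Another at 9.6 kb had 3.9 in Panc10.05 P2-a8 replicate 1. Over the 3 genes, 10 of the 17 regions were in 1 list, against 27.9% of all regions.

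The isoforms were compared within each induced line. In Panc10.05 the 3 loci held 2 and 5 peaks in P1-a2 (3.5 ± 2.12, SD, n = 2) and 5 and 3 in P2-a8 (4.0 ± 1.41, SD, n = 2), and the counts overlapped (two-sided exact permutation test, p = 1). In BxPC3 they held 7 and 8 in P1-a2 (7.5 ± 0.707, SD, n = 2) and 3 and 3 in P2-a8 (3.0 ± 0, SD, n = 2). The BxPC3 counts did not overlap, but 2 libraries against 2 can give no exact p below 0.333, which is the value they gave (adjusted p = 0.833 over 10 comparisons). With the BxPC3 lists cut to equal length the difference of 4.5 peaks turned to −1.5. FOXA2 was the FOXA gene with more peaks in every BxPC3 P1-a2 list than in every P2-a8 list, a pattern met by 58.0% of genes. Within 50 kb there were 6 regions in the Panc10.05 lists and 12 in the BxPC3 lists. None was in both lists of an isoform and neither list of the other. Over all 49247 regions of the Panc10.05 lists, 1791 were specific to P1-a2 in this way and 5370 to P2-a8. Over all 47225 of the BxPC3 lists, the numbers were 13330 and 61. The isoform difference was 5.0 peaks larger in BxPC3 than in Panc10.05 (exact permutation of the isoform labels within lines, p = 0.167, smallest possible 0.0556).

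Regions in all 4 lists of a line were compared by percentile. At the region near MYPOP, percentiles were higher in both P2-a8 lists in Panc10.05 (52.9 ± 28.1 in P1-a2 and 79.1 ± 2.69 in P2-a8, SD, n = 2) and higher in both P1-a2 lists in BxPC3 (73.5 ± 6.08 and 52.0 ± 9.33, SD, n = 2). In Panc10.05, 27.1% of regions in all 4 lists were higher in both P2-a8 lists and 19.9% in both P1-a2 lists. In BxPC3 3.97% were higher in both P2-a8 lists and 46.2% in both P1-a2 lists. The BxPC3 order at the region near MYPOP was thus the more frequent order among these regions, and its cause was not tested. At the region near NANOS2 the Panc10.05 percentiles overlapped.

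The guides and antibodies were compared in ASPC1. The 3 loci held 1 and 1 peaks in sgNC, 0 and 1 in sgP1 and 0 and 0 in sgP2 with the pan antibody, which differ by at most 1.0 on average (exact permutation test, smallest p = 0.333, adjusted p = 0.833). No region within 50 kb was in both lists of a guide. Over all 26867 regions of the sgP1 and sgNC lists, 2411 were in both sgNC lists and neither sgP1 list, and 110 the other way. Over all 27043 regions of the sgP2 and sgNC lists, the numbers were 1948 and 110. With the P1 antibody the nearest summit to FOXA1 was at least 1507.4 kb away, that to FOXA2 was 424.3 kb away in both sgP2 lists and 4717.1 kb in both sgNC lists, and that to FOXA3 was 142.2 to 2184.7 kb away. The P1-antibody lists are short, so a missing peak does not show that HNF4α-P1 is absent there.

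ASPC1 sgP1 replicate 2 held a single narrow peak 42.0 kb from FOXA2 (chr20:22538773-22539073). Its fold enrichment was 116 in the authors' list, rank 3 of 11686, with a −log10 q of 593. No other list held it, including sgP1 replicate 1. Of the 117 peaks in the top 1% of that list, 3 were in no other list, and the number was 0 in each of the other 17 lists. It carries the whole sgP1 count at these loci, which is 0 without that library.

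The lines were compared at a −log10 q of at least 8. ASPC1 held 0.333 peaks per list on average (n = 6), Panc10.05 held 3.75 (n = 4) and BxPC3 held 5.25 (n = 4). ASPC1 was lower than Panc10.05, with a difference of −3.42 peaks (two-sided exact permutation test, p = 0.00476, the smallest that 210 labellings can give, adjusted p = 0.0238), with 0 or 1 peaks in each of 6 ASPC1 lists and 2 to 5 in each of 4 Panc10.05 lists. ASPC1 was also lower than BxPC3, with a difference of −4.92 peaks, 3 to 8 in each BxPC3 list and the same exact p and adjusted p. These differences moved with list length. At that threshold ASPC1 lists held 8164 to 16984 peaks, and with all lists cut to 8164 peaks the differences were −0.833 (adjusted p = 0.81, exact permutation test) and −1.08 (adjusted p = 0.19), so neither call held. Leaving out any of the 4 Panc10.05 libraries, or any of the 4 BxPC3 libraries, gave an adjusted p of 0.0595 for its comparison, the smallest that the remaining 84 labellings allow (exact permutation test). Line, library set (library names carry a different prefix for each line) and doxycycline dose changed together in these comparisons. CRISPRi and whether HNF4α was inducible changed with them, and none of these can be told apart. The ASPC1 lists pool sgNC, sgP1 and sgP2, and the lists of each induced line pool P1-a2 and P2-a8. The test treats pooled lists as exchangeable libraries of a line, so the calls are not of line alone.

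At that threshold FOXA3 was the FOXA gene whose counts separated ASPC1 from the induced lines. All Panc10.05 lists exceeded all ASPC1 lists there, as at 38.1% of genes, and all BxPC3 lists did so, as at 12.3% of genes. At FOXA2 the BxPC3 lists held 1 to 4 peaks, and the only ASPC1 list with any was sgP1 replicate 2. Its 1 peak, described above and in no other list, is what made the FOXA2 counts of ASPC1 and BxPC3 meet. With lists cut to 8164 peaks, ASPC1 held 0 at FOXA3, Panc10.05 held 1, 0, 2 and 1, and BxPC3 held 0, 1, 1 and 1. Neither separation held there. Regions in every Panc10.05 list and no ASPC1 list numbered 2 of 8 at the FOXA loci, against 19.7% of all regions of these lists. They were the pair near MYPOP and NANOS2. Regions in every BxPC3 list and no ASPC1 list numbered 1 of 14, the region near MYPOP, against 8.12% of all regions. Panc10.05 and BxPC3 differed by 1.5 peaks over the 3 genes (exact permutation test, p = 0.429, adjusted p = 0.857). Dose and library set also changed with line in this comparison. FOXA2 alone separated these lines within 50 kb, with 1 to 4 peaks in BxPC3 and 0 in Panc10.05, a pattern met by 1.4% of genes. With lists cut to 12681 peaks, BxPC3 held 1, 0, 1 and 1 at FOXA2 and Panc10.05 still 0, and the counts overlapped.

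The values on either side of the 50 kb limit show how much the FOXA2 contrast rests on it. The farthest BxPC3 region inside it lay at 44.1 kb. Just outside, on the other side of the gene, a region at 53.6 kb (chr20:22527059-22527647) was in 7 induced lists and a region at 56.8 kb (chr20:22523668-22524900) was in all 8, including the 4 Panc10.05 lists. A region at 58.5 kb was in 3 BxPC3 lists. At FOXA3, the region at 51.5 kb was in 4 lists, 2 of each induced line. A window of 200 kb, chosen after the data were seen, was therefore also described.

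**Figure D3:**
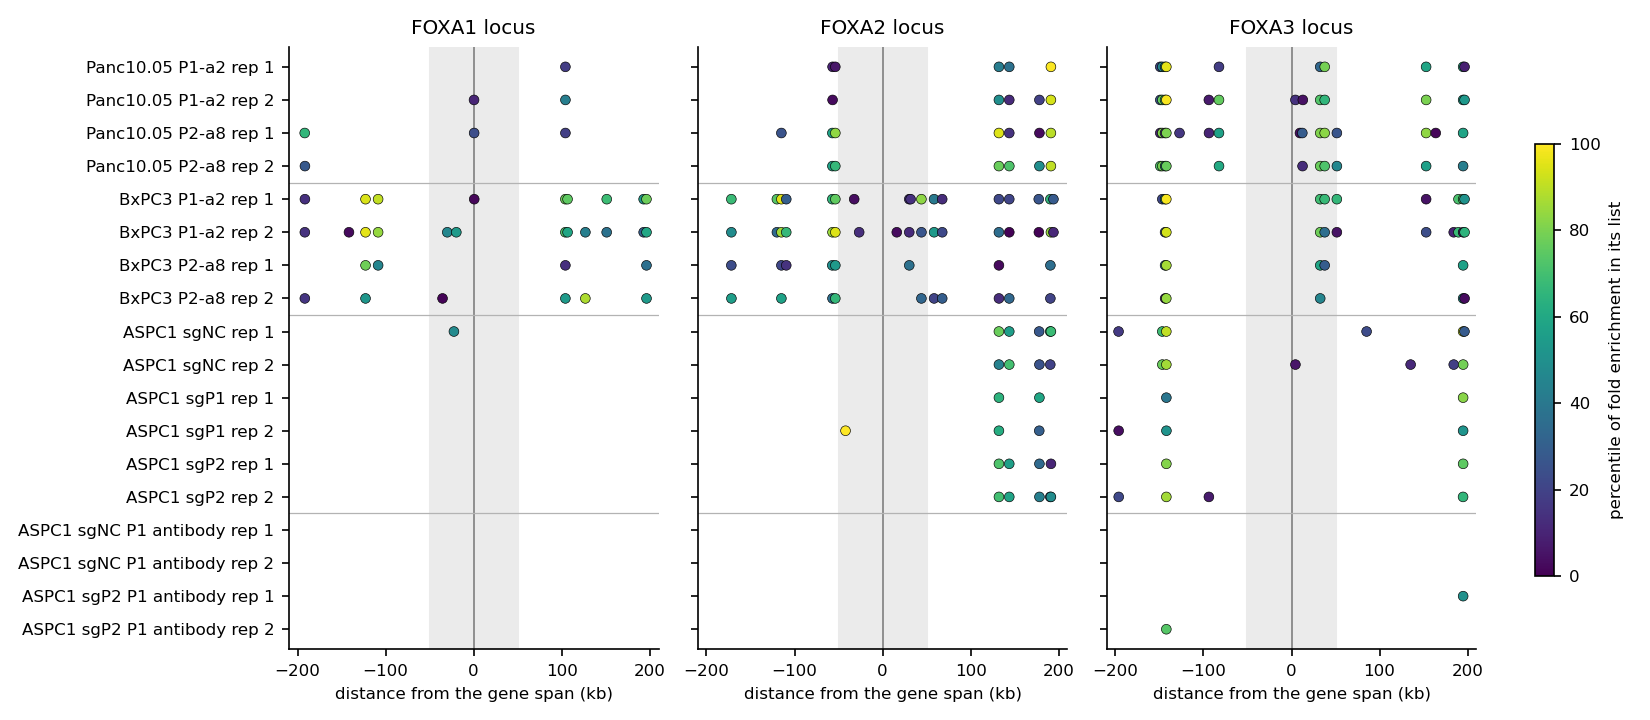
Each dot is a listed peak, placed by the distance of its summit from the gene span in kb (horizontal axis, negative towards lower coordinates) and by its list (rows), and coloured by its percentile in that list. The grey band marks 50 kb on each side, and the FOXA2 dots of Panc10.05 lie outside it, the nearest at 53.6 kb.

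Within 200 kb the 18 lists held 241 peaks in 57 regions. At FOXA1, 11 of the 15 regions were in BxPC3 lists only, as were 12 of 20 at FOXA2 and 1 of 22 at FOXA3, against 21.7% of all regions. Regions in Panc10.05 lists only numbered 6 at FOXA3 and 0 at FOXA1 and FOXA2, against 21.6% of all regions. FOXA1 had 1 to 3 peaks in Panc10.05 lists and 4 to 12 in BxPC3 lists, and FOXA2 had 5 to 7 against 8 to 17. Such a separation was met by 1.33% of genes. With lists cut to 12681 peaks, FOXA1 had 0 in each Panc10.05 list and 5, 3, 4 and 5 in the BxPC3 lists, a separation met by 6.65% of genes, while the FOXA2 counts met at 4. These counts carry no test, because the window was chosen after they were seen.

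The FOXA1 regions of highest mean percentile lay inside MIPOL1, the neighbouring gene whose introns are known to hold FOXA1 enhancers in prostate cancer. The region at chr14:37466531-37467049, 122.7 kb from FOXA1, was in the 4 BxPC3 lists and no other. Its percentiles were 94.3 and 95.8 in P1-a2 and 78.0 and 52.6 in P2-a8. On the other side, in TTC6, the region at chr14:37698962-37699769 was in 7 induced lists. Its percentiles were 78.1 and 72.2 in BxPC3 P1-a2, 13.4 and 54.2 in BxPC3 P2-a8, and 17.8, 42.3 and 18.5 in the 3 Panc10.05 lists that held it. At each of these regions both BxPC3 P1-a2 lists ranked it above both P2-a8 lists, as at 46.2% of regions in all 4 BxPC3 lists. The difference of means at the MIPOL1 region was 29.8 points, and 14.2 when ranked by −log10 q.

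Among the 13 regions within 200 kb of a FOXA gene that were in all 4 Panc10.05 lists, the largest percentile difference between isoforms lay at the FOXA2 region at 56.8 kb. Its percentiles were 9.5 and 3.1 in P1-a2 and 57.6 and 57.3 in P2-a8, 65.6 and 85.1 in BxPC3 P1-a2, and 49.1 and 35.9 in BxPC3 P2-a8. The Panc10.05 means were 51.2 points apart, and 5.03% of regions in all 4 Panc10.05 lists were higher in both P2-a8 lists by at least 40 points. This region was 1233 bp wide, and its summits spanned 360 bp over the 8 induced lists, against the median of 80 bp given above. In Panc10.05 they lay at 22524237 and 22524242 in P1-a2 and at 22524007 and 22524041 in P2-a8. The percentiles need not be of the same site. The next region towards the gene, at 53.6 kb, had 6.0 in Panc10.05 P1-a2 replicate 1, no peak in replicate 2, and 83.3 and 66.7 in P2-a8. In BxPC3 both P1-a2 lists ranked the region at 56.8 kb above both P2-a8 lists, by 32.9 points on average and by 20.8 when ranked by −log10 q. That order was met by 46.2% of regions in all 4 BxPC3 lists, and the P1-a2 lists are longer, so no reversal between lines is read from it. No test was made of these differences, since 2 lists against 2 cannot pass the threshold.

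Some regions beyond 50 kb on the LNCNEF side of FOXA2 were shared by all lines, and those at 58.5, 67.7 and 194.0 kb were in BxPC3 lists only. The region at chr20:22717081-22717913, 132.1 kb from FOXA2 and 26.76 kb from the protein-coding gene LOC124904962, was in all 14 lists of the pan antibody, as were 2.95% of all regions. Its percentiles were 41.9 and 49.2 in Panc10.05 P1-a2 and 94.6 and 77.2 in P2-a8, 21.6 and 35.3 in BxPC3 P1-a2 and 2.5 and 12.7 in P2-a8, 77.2 and 43.4 in ASPC1 sgNC, 64.2 and 62.0 in sgP1, and 72.2 and 69.9 in sgP2. These lists differ in length and in their lowest −log10 q, so no order of the lines is read from them, and ranked by −log10 q the BxPC3 P1-a2 lists stood at 61.0 and 66.6 against 55.4 and 54.1 in Panc10.05 P1-a2. The sgNC values spanned those of the other guides. The region at 190.4 kb (chr20:22775660-22777107), 28.67 kb from LOC124904962, was in 12 lists. It ranked at 89.7 to 99.6 in the Panc10.05 lists and 20.1 to 84.3 in those of BxPC3. In ASPC1 it ranked at 19.7 and 68.2 in sgNC and 10.8 and 48.4 in sgP2, and it was not listed in either sgP1 library. Ranked by −log10 q, the Panc10.05 lists stood at 93.5 to 99.3 and those of BxPC3 at 67.0 to 91.1. Its summits spanned 797 bp. They lay at 22776645 to 22776665 in Panc10.05, 22776028 and 22776651 in BxPC3 P1-a2, and 22776068 and 22776039 in BxPC3 P2-a8. The values need not be of the same site. Over all regions, 2411 of 26867 were in both sgNC lists and neither sgP1 list, and 885 of 20473 in both sgP2 lists and neither sgP1 list. The region at 143.9 kb was likewise in both lists of sgNC and of sgP2 and in no sgP1 list.

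FOXA3 had its widest shared sites far from the gene. A region in FBXO46, an F-box gene 142.0 kb away (chr19:45721765-45723226), was in all 14 lists of the pan antibody and in ASPC1 sgP2 replicate 2 with the P1 antibody. Its percentiles were 90.5 and 86.0 in ASPC1 sgNC, 81.4 and 86.0 in sgP2 and 39.2 and 51.5 in sgP1, so both sgP1 lists lay below the others. Percentiles were higher in both sgNC lists than in both sgP1 lists at 36.1% of regions in all 4 lists, and by at least 35 points on average at 6.81%. They were higher in both sgP2 lists than in both sgP1 lists at 21.9% of regions, and by at least 35 points at 2.51%. In the induced lines this region ranked at 76.6 to 99.1. The region in IGFL4 at 194.8 kb was in the same number of lists, with 91.9 and 78.6 in sgNC, 82.2 and 51.7 in sgP1 and 75.2 and 65.8 in sgP2, and both sgNC lists lay above both sgP2 lists, as at 32.6% of regions in all 4 of these lists. The sgNC and sgP1 values overlapped, but ranked by −log10 q both sgNC lists (90.0 and 81.6) lay above both sgP1 lists (79.7 and 51.3).

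**Figure D4:**
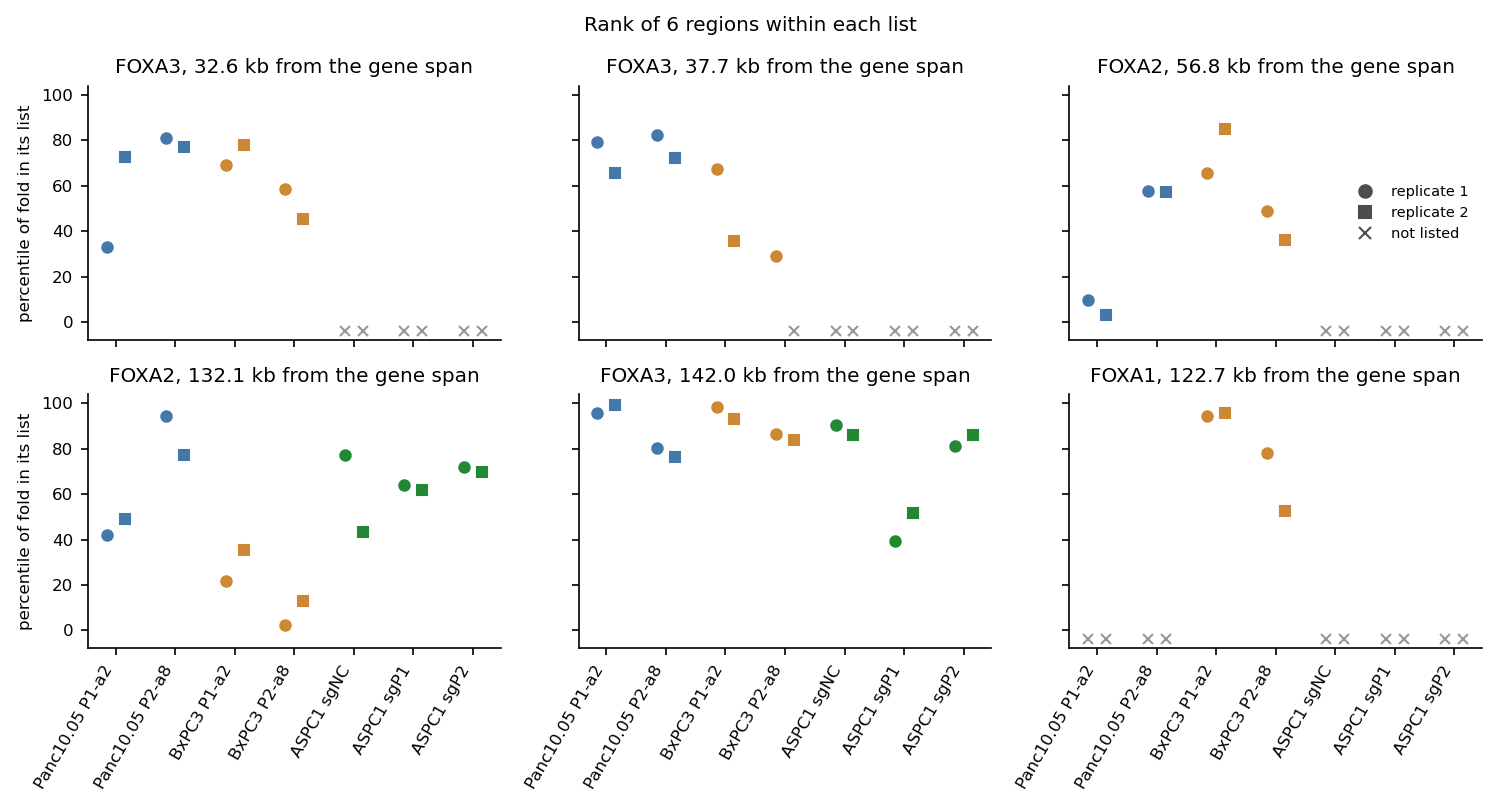
Percentile of fold enrichment within its list (vertical axis, 100 highest) at 6 regions, by group (horizontal axis), with circles for replicate 1, squares for replicate 2 and crosses where the list holds no peak. At the FOXA2 region at 56.8 kb the Panc10.05 P2-a8 lists lie near 57 and the P1-a2 lists under 10, and at the FOXA3 region at 142.0 kb the sgP1 lists lie at 39.2 and 51.5. Summits of the 56.8 kb region differ between the Panc10.05 isoforms.

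The genes most like each FOXA gene were taken from other chromosomes by the correlation of the best percentile within 50 kb over the 18 lists, which share lines, list length and antibody. For FOXA3 these were TFG (Pearson r = 0.996), LOC107986346 (0.996) and ELOVL7 (0.995). For FOXA2 they were PDLIM3 (0.79), CYP2C8 (0.686) and NEIL3 (0.68). For FOXA1 they were LOC107986860 (0.925), ARID2 (0.877) and OR4D11 (0.874). FOXA1 and FOXA2 had a peak in 6 and 5 lists, so their values rest on few points. FOXA3 had a peak in 9 lists, which were the 8 induced lists and ASPC1 sgNC replicate 2. Lists without a peak enter each r as 0. The genes named are the highest of 15400 candidates for FOXA1, 15415 for FOXA2 and 14701 for FOXA3.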

How the data were processed

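The 18 immunoprecipitated libraries were analysed, and the 14 input libraries were not used here. Each deposited file is a peak list of 1 library. The deposited fold enrichment is a linear ratio, the deposited p-value and q-value are −log10 values, and the deposited score is an integer made from the −log10 q. Per the submitters' processing notes, Bowtie2 2.2.9 and MACS2 2.2.7 were among the tools, and hg38 and mm10 among the builds, with no role given; the lists were read as hg38, and a larger share of summits lay near gene ends of RefSeq GRCh38.p14 than after a shift in 18 of 18 lists. For the BxPC3 P2-a8 libraries the genotype label was used, since their titles pair a8 with P1.

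A summit is the peak start plus its offset. Summits within 50 kb of a gene's span were counted with Python 3.11.15, numpy 2.4.6 and pandas 2.3.3, checked against bedtools 2.31.1 and tested on simulated data. Peaks overlapping by at least 1 bp were merged. Counts over the 3 genes were compared by two-sided exact permutation tests over libraries, with Benjamini-Hochberg adjustment over 10 comparisons and a threshold of 0.05. Named regions were, at each gene, those in most lists and those that separated groups; regions beyond 50 kb were chosen after their values were seen. The reference genes and the FOXA members were chosen with earlier results of these data known. Alternatives were a window of 10 kb, lists of equal length, a −log10 q of at least 20, summits chained within 100 bp, each library left out, and a replicate block. Read depth is not given in the sources used here, so no interval for reads could be given. Promoter sequences searched were those of FOXA1, TTC6, FOXA3, IRF2BP1, SYMPK, MYPOP, NANOS2, LINC00261 and LNCNEF, and that of FOXA2 was not used here.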

Additional observations from a re-analysis of the deposited data

How the results depend on the processing

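The lower counts of ASPC1 kept their direction under every alternative run. Their calls held at a −log10 q of at least 20 (−2.33 against Panc10.05 and −3.58 against BxPC3). They also held with the replicate block (adjusted p = 0.05 for each, exact permutation test, differences of −3.42 and −4.92), which changed no other call. Within 200 kb the differences were −14.2 and −22.8. No call is read from them, because that window was chosen after the data were seen. Same-numbered libraries deviated with correlations of −0.067 to 0.068, so numbers were not taken as pairs. Within 10 kb the differences were −1.0 and −0.25 and neither call held (exact permutation test, p = 0.133 and 0.4, adjusted p = 1.0 for each), and that between Panc10.05 and BxPC3 turned to 0.75; the Panc10.05 isoform difference and that of sgP1 against sgP2 were 0, and the ASPC1 regions set apart numbered 0. In lists of equal length the differences were 0 between Panc10.05 isoforms, −1.5 between BxPC3 isoforms, 0.5 for sgP1 against sgNC, 0 for sgP2 against sgNC, 0 between the induced lines, and −0.833 and −1.08 for ASPC1, with 0 regions set apart; fewer peaks enter these lists. At a −log10 q of at least 20 the Panc10.05 isoforms differed by 0, sgP1 and sgNC by 0.5, sgP2 and sgNC by 0, and 1 region separated BxPC3 P1-a2 from P2-a8. Within 200 kb sgP1 and sgP2 differed by −2.5, the P1-antibody lists of sgP2 and sgNC by 1.0 and the antibodies in sgP2 by −6.5. The regions set apart there numbered 3 (Panc10.05 isoforms), 9 (BxPC3 isoforms), 3 (sgP1 and sgNC), 1 (sgP2 and sgNC), 2 (sgP1 and sgP2), 4 (antibodies), 5 (induced lines), 7 (ASPC1 and Panc10.05) and 9 (ASPC1 and BxPC3). The numbers of regions set apart in this section have no share over all regions beside them, so nothing about the loci is read from them. The cause of the changes under these alternatives was not tested.

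Leaving out 1 library at a time gave differences of −2.0 to 1.0 for the Panc10.05 isoforms, which turned positive without P1-a2 replicate 1 (1.0) or P2-a8 replicate 1 (0.5), 4.0 to 5.0 for the BxPC3 isoforms, −1.0 to 0 for sgP1 against sgNC, 0 to 1.0 for sgP1 against sgP2, −4.0 to −3.0 for ASPC1 against Panc10.05 and −5.67 to −4.0 for ASPC1 against BxPC3. The regions set apart ranged over 0 to 2 for the Panc10.05 isoforms, 1 to 4 for the BxPC3 isoforms, 0 to 1 for each pair of guides and for the induced lines, and 1 to 3 for ASPC1 against BxPC3. Chaining summits within 100 bp changed none of the 10 numbers of regions set apart. Ranking by −log10 q, chosen after seeing the data, turned the Panc10.05 difference at the region near NANOS2 from −5.0 to 4.55 points, and gave −40.7 in place of −51.2 at the FOXA2 region at 56.8 kb.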
